A study of Mus musculus with 16 samples.

Results

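The endoplasmic reticulum (ER) genes described here encode the proteins that sense misfolded protein in the ER, fold and oxidise proteins that enter it, and remove those that fail to fold. They were taken by symbol from a list of 33 genes, all of which are among the 24091 genes in the deposited expression table. The RNA came from caecal epithelial cells of mice of the inbred strain C57BL/6. All mice received a vehicle with the sweetener Splenda at 10 g/L, with or without the antibiotic ampicillin at 1 g/L, and on day 7 were gavaged 6 h before the tissue was taken. The 3 groups of 3 RNA libraries were vehicle with a mock gavage of 25% glycerol (vehicle), ampicillin with the same mock gavage (ampicillin), and ampicillin with a gavage of tributyrin, a triglyceride of butyrate (tributyrin). None of these libraries had tributyrin without ampicillin. The tributyrin dose, the liquid it was given in and the age of the mice were not stated. Nor do the labels say that each library came from a separate mouse. If the libraries did not, the p-values reflect a spread that may be technical. The series holds 16 samples, of which the 7 chromatin samples were not analysed here.

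Proteins bound for secretion or for membranes enter the ER through the Sec61 channel, where the Hsp70 protein BiP (Hspa5), the Hsp90 protein GRP94 (Hsp90b1), the lectin chaperones and the protein disulfide isomerases fold them. When unfolded protein accumulates, BiP is drawn away from the sensors IRE1, PERK and ATF6. IRE1 splices the Xbp1 message, PERK phosphorylates eIF2alpha and so favours translation of ATF4, and ATF6 is cut to release a transcription factor, and together these raise chaperone and degradation genes. Proteins that cannot be folded are moved back to the cytosol and destroyed, which is called ER-associated degradation (ERAD). Gut epithelium secretes much glycoprotein, mucins from goblet cells above all, and carries a sensor of its own, IRE1beta (Ern2).

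Levels are given in TPM, each gene's share of the transcripts in a library, which corrects for transcript length so that genes can be compared within a library. TPM keeps no sequencing depth, so counting error is unknown and the error given is the SD over the 3 libraries of a group. In vehicle libraries the highest member was P4hb, a disulfide isomerase, at 489.5 ± 14.9 TPM (SD, n = 3). The lectin chaperone Calr followed at 468 ± 8.07 TPM, and its libraries overlapped with those of P4hb. Sec61b, a subunit of the channel, stood at 346 ± 20.8 TPM, above Pdia3, an isomerase that works with the lectin chaperones, at 296 ± 1.73 TPM. Hsp90b1 (276 ± 11.7 TPM) and Hspa5 (261 ± 25.4 TPM) came next and overlapped with each other. Of the 4 sensors, 3 lay at the other end of the order, with Ern1 at 5.39, Atf6 at 7.18 and Eif2ak3 at 8.83 TPM, and only Derl3 was lower, at 0.247 TPM. Of the 32 pairs of neighbours in that order, 19 had no overlapping libraries and 13 did, in each group. Under tributyrin Calr led at 719 ± 27.2 TPM, and Hspa5 moved from the sixth place to the third at 505 ± 29.3 TPM, where its libraries overlapped with those of P4hb (529 ± 15.4 TPM).

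**Figure D1:**
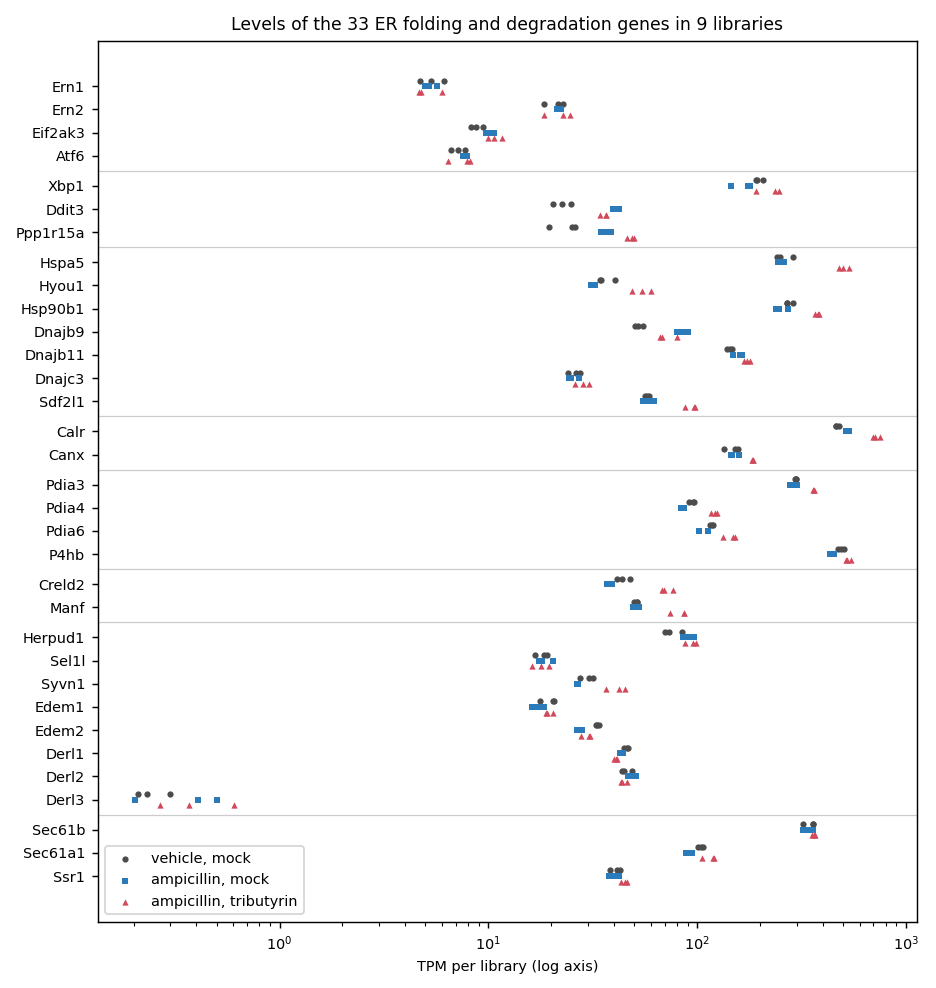
Level of each of the 33 genes in TPM on a log axis, with 1 point per library and colours for the 3 groups. The genes span from Derl3, under 1 TPM in all 9 libraries, to Calr, which reaches 748 TPM in a tributyrin library.

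The summed TPM of the 33 genes was 3555 to 3715 in vehicle libraries, 3555 to 3619 in ampicillin libraries and 4552 to 4784 in tributyrin libraries, so every tributyrin library stood above the other 6. As shares of all TPM these were 0.356 to 0.372%, 0.356 to 0.362% and 0.455 to 0.479%. Entries for short RNA, whose TPM is unstable, took 4.19 to 6.32% of TPM in vehicle, 3.32 to 6.02% in ampicillin and 2.84 to 3.31% in tributyrin libraries. With these entries left out, 16 members still rose and 1 fell for tributyrin against ampicillin. The 12 epithelial markers summed to 43300 to 49430 TPM in all 9 libraries, of which Car1 alone made up more than all the others. Ampicillin lowered 7 of the 12 (58.3%, against 10.2% of all genes tested) and raised 0, and Krt20 fell most (-0.92 ± 0.103, adjusted p = 0.000520). Tributyrin against ampicillin raised 2 (16.7%, against 15.6%) and lowered 0. Tributyrin against vehicle raised 3 (25%, against 19.1%) and lowered 4 (33.3%, against 9.21%). Their part in the member results was not tested. In bulk RNA, fewer cells of a type and less RNA per cell cannot be told apart.

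Many genes of this group carry the ER stress response element (ERSE) in their promoters, the sequence CCAAT, then 9 bases, then CCACG, which ATF6 binds together with the CCAAT-binding factor NF-Y. RefSeq promoters of assembly GRCm38.p6, the build named mm10, were searched on both strands in windows from 250 bases before to 50 after the start of a transcript, and 27 of the 33 genes had a window. ERSE was found in 39 of 32851 promoters (0.119%), and 9 of the 27 genes held it (33.3%). Since this group of genes is known for the element, the higher share is a description and not a test. The matches are shown because the genes that hold them include Hspa5, whose change with tributyrin was the largest in size among the members. The fixed letters are in capitals, each site is written in the direction of the motif, and Hsp90b1 holds a pair of matches:
Hspa5 (chr2:34772025-34772043, plus strand): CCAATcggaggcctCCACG
Hsp90b1 (chr10:86705638-86705656, minus strand): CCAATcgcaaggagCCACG
Hsp90b1 (chr10:86705533-86705551, plus strand): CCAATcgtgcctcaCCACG
Calr (chr8:84847075-84847093, plus strand): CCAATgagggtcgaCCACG
Canx (chr11:50325800-50325818, minus strand): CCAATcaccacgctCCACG
Pdia6 (chr12:17266491-17266509, plus strand): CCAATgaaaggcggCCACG
Creld2 (chr15:88819520-88819538, minus strand): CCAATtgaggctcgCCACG
Syvn1 (chr19:6046532-6046550, plus strand): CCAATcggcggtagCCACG
Dnajc3 (chr14:118937827-118937845, plus strand): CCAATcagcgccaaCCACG
Derl3 (chr10:75893242-75893260, minus strand): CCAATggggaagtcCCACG
The Hspa5 match lies 65 to 47 bases before its start and that of Syvn1 44 to 26 bases before it. The related element ERSE-II, the sequence ATTGG, then 1 base, then CCACG, was found in 12 promoters (0.0365%), among them those of Herpud1 and Dnajb11:
Herpud1 (chr8:94386377-94386387, plus strand): ATTGGgCCACG
Dnajb11 (chr16:22857852-22857862, plus strand): ATTGGcCCACG
The Herpud1 site lies 52 to 42 bases before the start and that of Dnajb11 lies 7 to 17 bases after it. The UPRE, TGACGTGG, a site for XBP1, was in 222 promoters (0.676%) and in 0 of the 27. The C/EBP-ATF element, TGATGNAA, a site for CHOP and ATF4, was in 1304 promoters (3.97%) and, of the 27, in that of Herpud1. A match is a description of these letters and not a binding site. Only exact matches were counted, so a window may also hold variants of an element that were not counted.

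The 250 bases before the start of 3 genes are shown whole. They contrast a gene with 1 exact ERSE match, a gene with 2 and a gene with an exact ERSE-II match. The letters that match ERSE, ERSE-II or, in Herpud1, also the C/EBP-ATF element are in capitals, and each sequence is written along its gene:
Hspa5 (chr2:34771840-34772089, plus strand): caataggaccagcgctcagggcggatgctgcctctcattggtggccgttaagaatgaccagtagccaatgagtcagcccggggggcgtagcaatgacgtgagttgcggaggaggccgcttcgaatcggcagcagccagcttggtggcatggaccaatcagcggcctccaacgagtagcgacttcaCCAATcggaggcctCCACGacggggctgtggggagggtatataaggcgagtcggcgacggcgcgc
Hsp90b1 (chr10:86705445-86705694, minus strand): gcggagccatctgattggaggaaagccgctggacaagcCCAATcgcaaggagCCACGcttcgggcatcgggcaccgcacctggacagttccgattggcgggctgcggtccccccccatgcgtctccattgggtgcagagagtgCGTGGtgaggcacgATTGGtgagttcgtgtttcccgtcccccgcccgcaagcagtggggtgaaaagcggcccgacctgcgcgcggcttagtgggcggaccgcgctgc
Herpud1 (chr8:94386179-94386428, plus strand): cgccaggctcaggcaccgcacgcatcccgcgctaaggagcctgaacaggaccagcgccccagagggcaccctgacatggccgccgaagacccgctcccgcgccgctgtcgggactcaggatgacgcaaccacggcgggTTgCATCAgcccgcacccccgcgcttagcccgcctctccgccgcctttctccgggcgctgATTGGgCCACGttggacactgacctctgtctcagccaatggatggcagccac
Hspa5 and Hsp90b1 rose with tributyrin and Herpud1 was not called in that comparison.

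**Figure D2:**
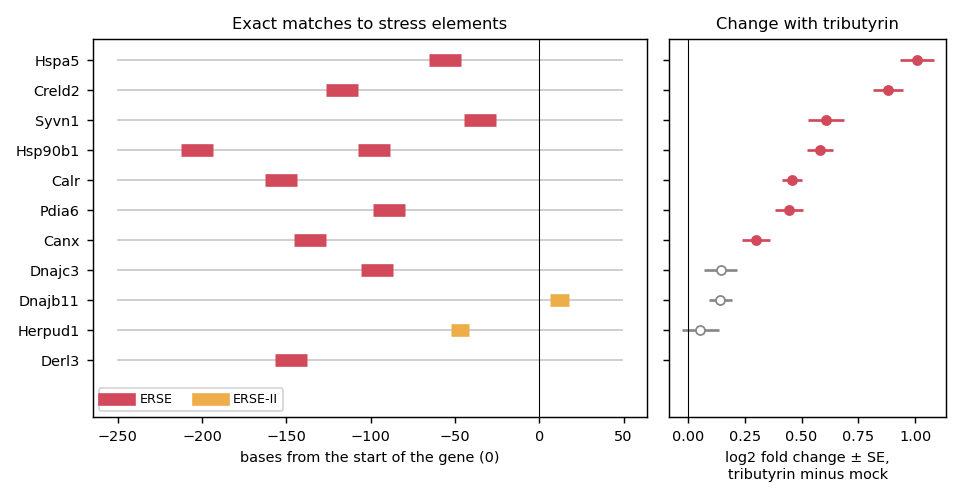
Positions of ERSE (red) and ERSE-II (yellow) matches in the promoter windows of the 11 genes that hold one, in bases from the RefSeq transcript start at 0, beside the log2 fold change with SE of each tested gene for tributyrin against ampicillin (filled where called). The ERSE matches lie before the start in all 9 of their genes, while the ERSE-II match of Dnajb11 lies after it.

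The comparison of ampicillin with vehicle asks how antibiotic treatment alters the epithelium under the same mock gavage. Differences were tested with limma on log2(TPM + 1) over the 12155 genes with a mean of at least 1 TPM, which 32 of the 33 passed, Derl3 aside. Genes counted as called had a Benjamini-Hochberg adjusted p under 0.05. All log2 fold changes are on the log2(TPM + 1) scale with their SE, which understates the change of low genes. Ampicillin raised 4 of the 32 genes (12.5%, against 11.0% of all genes tested) and lowered 3 (9.38%, against 10.2%). In all 7 were called, 21.9% against 21.3% of all genes, so the share of called genes was near the background. No library of 1 group overlapped with the other for 17 genes, while 40.8% of all genes were free of overlap. Of these, 7 were higher (21.9%, against 22.6% of all genes) and 10 lower (31.3%, against 18.2%). The median log2 fold change was -0.02, beside 0.02 for all genes tested. The genes that rose were Ddit3, Ppp1r15a, Dnajb9 and Calr, and those that fell were the isomerases Pdia4 and P4hb and the ERAD gene Edem2. Of 14 immediate early genes, which also answer to tissue handling, 9 rose in the same comparison (64.3%, against 11.0% of all genes). For tributyrin against ampicillin 6 rose (42.9%, against 15.6%), and for tributyrin against vehicle 13 rose (92.9%, against 19.1%). The part of these genes in the member results was not tested.

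Ddit3 (gene ID 13198, chromosome 10, 127290793 to 127296291) encodes CHOP, a transcription factor made under lasting ER or amino acid stress. Its vehicle libraries stood at 25.0, 20.4 and 22.4 TPM and its ampicillin libraries at 39.7, 42.4 and 40.3 TPM. All ampicillin libraries were above all vehicle libraries, with a mean 1.81 times as high (log2 fold change 0.83 ± 0.072, adjusted p = 0.000153). Ppp1r15a (gene ID 17872, chromosome 7, 45522917 to 45526268) encodes GADD34, which directs a phosphatase to eIF2alpha and so restores translation. It measured 26.0, 25.1 and 19.5 TPM in vehicle and 34.6, 38.7 and 36.4 TPM in ampicillin libraries, again without overlap (0.62 ± 0.0997, adjusted p = 0.00297). Xbp1, the transcription factor whose message IRE1 splices, was grouped by role with Ddit3 and Ppp1r15a and was not called (-0.25 ± 0.11, adjusted p = 0.142). Its libraries at 192, 208 and 193 TPM in vehicle and 175, 179 and 145 TPM in ampicillin did not overlap. TPM per gene does not tell the spliced Xbp1 message from the unspliced one.

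Of the 7 Hsp70 and Hsp90 chaperones and their partners, Dnajb9 was the 1 called, as higher (14.3%, against 11.0% of all genes). Dnajb9 (gene ID 27362, chromosome 12, 44205897 to 44210068) encodes ERdj4, a J protein that brings BiP to IRE1 and to clients for degradation. Its level was 50.4, 51.9 and 55.1 TPM in vehicle and 80.1, 84.5 and 91.0 TPM in ampicillin libraries, so the groups were far apart (0.69 ± 0.08, adjusted p = 0.000635). BiP itself did not follow: Hspa5 (gene ID 14828, chromosome 2, 34772090 to 34776529) stood at 242, 249.8 and 289.6 TPM in vehicle and 248, 243 and 260.4 TPM in ampicillin libraries, which overlap (-0.05 ± 0.075, adjusted p = 0.670). Hyou1, an Hsp70-like exchange factor for BiP, had a log2 fold change of -0.18 ± 0.085, adjusted p = 0.171, and Hsp90b1 one of -0.13 ± 0.058, adjusted p = 0.148. Of the lectin chaperones, which hold glycoproteins while they fold, Calr rose (0.16 ± 0.043, adjusted p = 0.0295) and its membrane-bound relative Canx was not called (0.03 ± 0.062, adjusted p = 0.799).

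Of the 3 genes that fell with ampicillin, 2 were among the 4 disulfide isomerases (50% of these, against 10.2% of all genes). P4hb (gene ID 18453, chromosome 11, 120560298 to 120573253), the archetypal isomerase and a subunit of prolyl 4-hydroxylase, went from 488, 475 and 505 TPM to 431, 437 and 452 TPM, a small shift without overlap (-0.15 ± 0.044, adjusted p = 0.0403). Pdia4 (gene ID 12304, chromosome 6, 47796141 to 47813512) went from 91.8, 95.3 and 96.7 TPM to 86.1, 85.3 and 84.1 TPM (-0.15 ± 0.042, adjusted p = 0.0368). Pdia6 and Pdia3 were not called, at -0.16 ± 0.062 and -0.04 ± 0.041. Edem2 starts mannose trimming of misfolded glycoproteins and so marks them for ERAD. It was the 1 of 7 tested ERAD genes called (14.3% lower, against 10.2% of all genes). It measured 32.7, 33.3 and 34.0 TPM in vehicle and 28.1, 27.5 and 26.6 TPM in ampicillin libraries (-0.27 ± 0.052, adjusted p = 0.00639). Herpud1, an ERAD scaffold of the ER membrane, was higher in each ampicillin library than in any vehicle library but missed the threshold (0.25 ± 0.081, adjusted p = 0.0596), as did the secreted stress protein Creld2, lower in each (-0.21 ± 0.066, adjusted p = 0.0564). The calls of Calr, Pdia4 and P4hb each depended on single libraries: without 1 library the adjusted p reached 0.0962 for Calr, 0.117 for Pdia4 and 0.130 for P4hb. Calr lost its call without any 1 of the 6 vehicle and ampicillin libraries. Pdia4 lost it without any ampicillin library, vehicle library 2 or 3 or tributyrin library 1, and P4hb without any ampicillin library, vehicle library 1 or 3 or tributyrin library 1 or 2. Calr also lost its call with median-of-ratios scaling (adjusted p = 0.0606) and with short RNA left out (0.0591), and Pdia4 without the variance trend (0.0566). P4hb lost its call with median-of-ratios scaling (0.0586), without the trend (0.0590) and with only those groups fitted (0.0561). The other 4 calls were kept in all alternatives run.

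**Figure D3:**
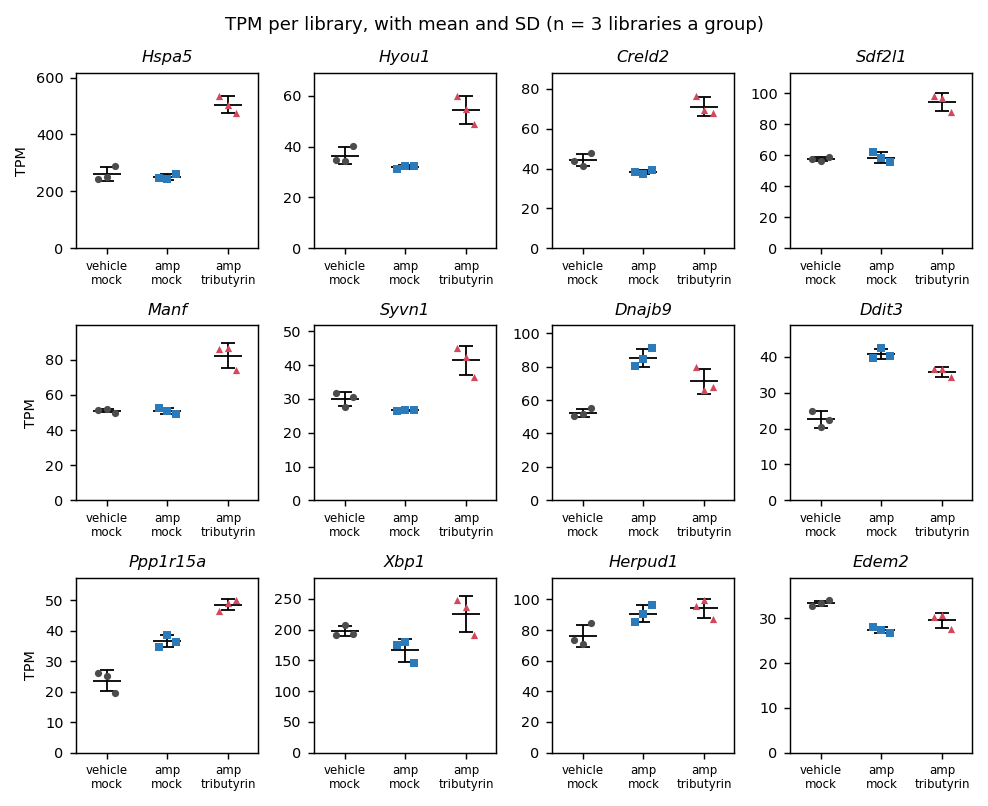
TPM per library for selected genes in the 3 groups, with 1 point per library and the mean and SD of each group. Hspa5 is high in tributyrin libraries alone, at 535, 502 and 477 TPM, whereas Ddit3 and Dnajb9 are already high in ampicillin libraries.

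Adding tributyrin to ampicillin asks what this source of butyrate does within 6 h in antibiotic-treated mice. The comparison shares the ampicillin libraries with the one above, so each is given by its own values. Tributyrin raised 16 of the 32 genes (50.0%, against 15.6% of all genes tested) and lowered 1 (3.13%, against 7.54%). In all 53.1% were called, against 23.2% of all genes. The libraries did not overlap for 23 genes, 19 of them higher (59.4%, against 27.3% of all genes) and 4 lower (12.5%, against 15.3%). The median log2 fold change was 0.22, beside 0.05 for all genes tested. The members were chosen with earlier results of these data known, so their share set against all genes is not an independent test in any comparison. The 16 were folding factors for the most part: the chaperones Hspa5, Hyou1, Hsp90b1, Sdf2l1, Calr and Canx, all 4 isomerases, the secreted proteins Creld2 and Manf, and with them Xbp1, Ppp1r15a, Syvn1 and Sec61a1. The balance of calls over all genes moved with the scaling, from 67.5% of called genes higher to 50.0% with median-of-ratios scaling and 47.1% with quantile normalization. The count of raised members was 16 under both, with 4 and 2 lowered.

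None of the 4 sensor genes was called, while 23.2% of all genes were. Ern1, which encodes IRE1alpha, stood at 4.95, 5.18 and 5.68 TPM in ampicillin and 6.01, 4.76 and 4.66 TPM in tributyrin libraries (-0.03 ± 0.11, adjusted p = 0.856). Ern2, the epithelial IRE1beta, was more abundant and stood at 21.4, 22.4 and 21.3 against 24.6, 22.9 and 18.5 TPM (0.01 ± 0.11, adjusted p = 0.969). Atf6 had a log2 fold change of -0.03 ± 0.089, adjusted p = 0.817, and Eif2ak3, the gene of PERK, one of 0.07 ± 0.073, adjusted p = 0.508. RNA level says nothing of whether these kinases and this factor were active. Downstream of them, Xbp1 (gene ID 22433, chromosome 11, 5520641 to 5525993) stood at 175, 179 and 145 TPM in ampicillin and 247, 236 and 192 TPM in tributyrin libraries. It rose by 0.43 ± 0.11 (adjusted p = 0.0237), a call lost without ampicillin library 3, tributyrin library 1 or tributyrin library 2, where the adjusted p reached 0.0839. The Xbp1 call was also lost with only the ampicillin and tributyrin groups fitted (0.0559). Ppp1r15a measured 46.4, 48.9 and 49.9 TPM under tributyrin and rose by 0.40 ± 0.0997 (adjusted p = 0.0232), a call lost without ampicillin library 1 or 3 or tributyrin library 2 or 3, at up to 0.0787. Ddit3 was not called, with 36.5, 36.7 and 34.3 TPM under tributyrin (-0.18 ± 0.072, adjusted p = 0.0994).

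Among Hsp70 and Hsp90 chaperones and their partners, 4 of 7 rose (57.1%, against 15.6% of all genes) and 1 fell (14.3%, against 7.54%). Hspa5 reached 535, 502 and 477 TPM, against 248, 243 and 260.4 TPM in ampicillin libraries, so that the lowest tributyrin library was well above the highest ampicillin library. Its mean was 2.02 times as high (1.01 ± 0.075, adjusted p = 0.000367). Hyou1 (gene ID 12282, chromosome 9, 44379490 to 44392369) went from 31.1, 32.3 and 32.4 TPM to 59.9, 54.7 and 49.0 TPM (0.75 ± 0.085, adjusted p = 0.000983). Hsp90b1 (gene ID 22027, chromosome 10, 86690841 to 86705444), a chaperone for integrins and Toll-like receptors among others, went from 247, 238 and 271 TPM to 380.3, 368 and 382 TPM (0.58 ± 0.058, adjusted p = 0.000613). Neither gene had overlapping libraries. Sdf2l1 (gene ID 64136, chromosome 16, 17130138 to 17132383), which forms a complex with ER J proteins that assists BiP, rose from 62.1, 58.1 and 55.4 TPM to 98.2, 97.0 and 88.0 TPM (0.68 ± 0.059, adjusted p = 0.000425).

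None of the 3 J proteins, which deliver clients to BiP, was called higher, while 15.6% of all genes were. Dnajb9, the member with the second largest rise under ampicillin, stood at 79.8, 66.2 and 67.6 TPM under tributyrin and was the 1 gene that fell (-0.26 ± 0.08, adjusted p = 0.0494). That call was lost without any 1 library other than tributyrin library 1, at up to 0.155, and with the low-expression filter left out it stood at 0.0663. It was also lost without the variance trend (0.0587), with only the ampicillin and tributyrin groups fitted (0.0836) and with the replicate block (0.0676). Dnajb11, the gene of ERdj3, was higher in each tributyrin library, at 174, 168 and 179.9 against 164, 149 and 160.2 TPM, and was not called (0.14 ± 0.051, adjusted p = 0.0753). Dnajc3, the gene of P58IPK, was not called either, with overlapping libraries at 24.5, 24.9 and 27.2 and 30.4, 28.5 and 26.0 TPM (0.14 ± 0.074, adjusted p = 0.194).

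Both lectin chaperones and all 4 isomerases rose, against 15.6% of all genes. Calr (gene ID 12317, chromosome 8, 84842088 to 84846931) went from 531, 521 and 516 TPM to 714, 748 and 695 TPM, the largest rise in TPM after that of Hspa5 (0.46 ± 0.043, adjusted p = 0.000513). Canx (gene ID 12330, chromosome 11, 50293957 to 50325673) went from 147, 146 and 158 TPM to 184, 186 and 186 TPM (0.30 ± 0.062, adjusted p = 0.0106). Of the isomerases Pdia4 changed most, from 86.1, 85.3 and 84.1 TPM to 122, 125 and 117 TPM (0.50 ± 0.042, adjusted p = 0.000400). Pdia6 (gene ID 71853, chromosome 12, 17266589 to 17284785), which also binds BiP and IRE1, rose by 0.45 ± 0.062 (adjusted p = 0.00204) to 152, 148 and 133 TPM. The lectin-associated Pdia3 (gene ID 14827, chromosome 2, 121413902 to 121438687) rose by 0.33 ± 0.041 (adjusted p = 0.00138) to 364, 359 and 362 TPM. P4hb rose by 0.26 ± 0.044 (adjusted p = 0.00445) to 519, 521 and 547 TPM. No isomerase had an ampicillin library that reached a tributyrin library.

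Creld2 and Manf, small secreted proteins of the stressed ER, both rose, against 15.6% of all genes. Creld2 (gene ID 76737, chromosome 15, 88819646 to 88826681) stood at 38.3, 37.0 and 39.2 TPM in ampicillin and 76.5, 69.3 and 67.8 TPM in tributyrin libraries, the second largest log2 fold change of the 32 (0.88 ± 0.066, adjusted p = 0.000376). Manf (gene ID 74840, chromosome 9, 106888753 to 106891938), a trophic factor that also steadies BiP on its clients, stood at 52.8, 50.9 and 49.3 against 86.4, 86.6 and 74.3 TPM (0.68 ± 0.064, adjusted p = 0.000540). Neither overlapped between the groups.

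Of 7 ERAD genes tested, 1 rose (14.3%, against 15.6% of all genes) and 0 fell. That gene was Syvn1 (gene ID 74126, chromosome 19, 6046576 to 6053718), which encodes HRD1, the ubiquitin ligase at the centre of the main ERAD complex. It went from 26.5, 26.7 and 26.8 TPM to 45.0, 42.5 and 36.6 TPM, without overlap (0.61 ± 0.08, adjusted p = 0.00168). Sel1l, the partner that holds HRD1 stable, was not called and its libraries overlapped, at 18.1, 17.4 and 20.4 against 19.5, 17.9 and 16.3 TPM (-0.06 ± 0.085, adjusted p = 0.669). Herpud1 (gene ID 64209, chromosome 8, 94386429 to 94395371) stood at 85.5, 90.5 and 96.2 against 96.0, 99.3 and 87.3 TPM, also overlapping (0.05 ± 0.081, adjusted p = 0.677). The mannosidase-like Edem1 and Edem2 had log2 fold changes of 0.16 ± 0.072 and 0.11 ± 0.052. The derlins, which form the exit channel with HRD1, were at -0.09 ± 0.04 for Derl1 and -0.13 ± 0.057 for Derl2, lower in direction. Derl3 was under the filter, with 0.203, 0.501 and 0.409 TPM in ampicillin and 0.602, 0.368 and 0.268 TPM in tributyrin libraries. At the entry channel, the pore subunit Sec61a1 rose from 94.8, 93.5 and 88.7 TPM to 121, 119 and 106 TPM (0.32 ± 0.058, adjusted p = 0.00684). The small subunit Sec61b (0.08 ± 0.059, adjusted p = 0.339) and Ssr1, part of the translocon-associated complex (0.17 ± 0.059, adjusted p = 0.0742), were not called.

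Set against the promoter sequences above, 7 of the 9 genes with an ERSE match rose for tributyrin against ampicillin. The others were Dnajc3, which was not called, and Derl3, which was not tested. Of all genes tested, 15.6% rose and 7.54% fell in this comparison. Neither of the 2 genes with ERSE-II was called in it. Both were called higher for tributyrin against vehicle, as were 7 of the 9 with ERSE and 19.1% of all genes tested. For tributyrin against ampicillin, 6 of the 16 genes with a window and no exact match to either element rose. These were Pdia3, Pdia4, P4hb, Sdf2l1, Xbp1 and Ppp1r15a, while Dnajb9 fell. Of the 6 genes without a window, 3 rose (Hyou1, Manf and Sec61a1). The median log2 fold change was 0.52 for the tested genes with ERSE and 0.10 for those with ERSE-II. It was 0.13 for those with a window and no exact match, and 0.16 for those without a window. These counts describe small sets and were not tested.

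**Figure D4:**
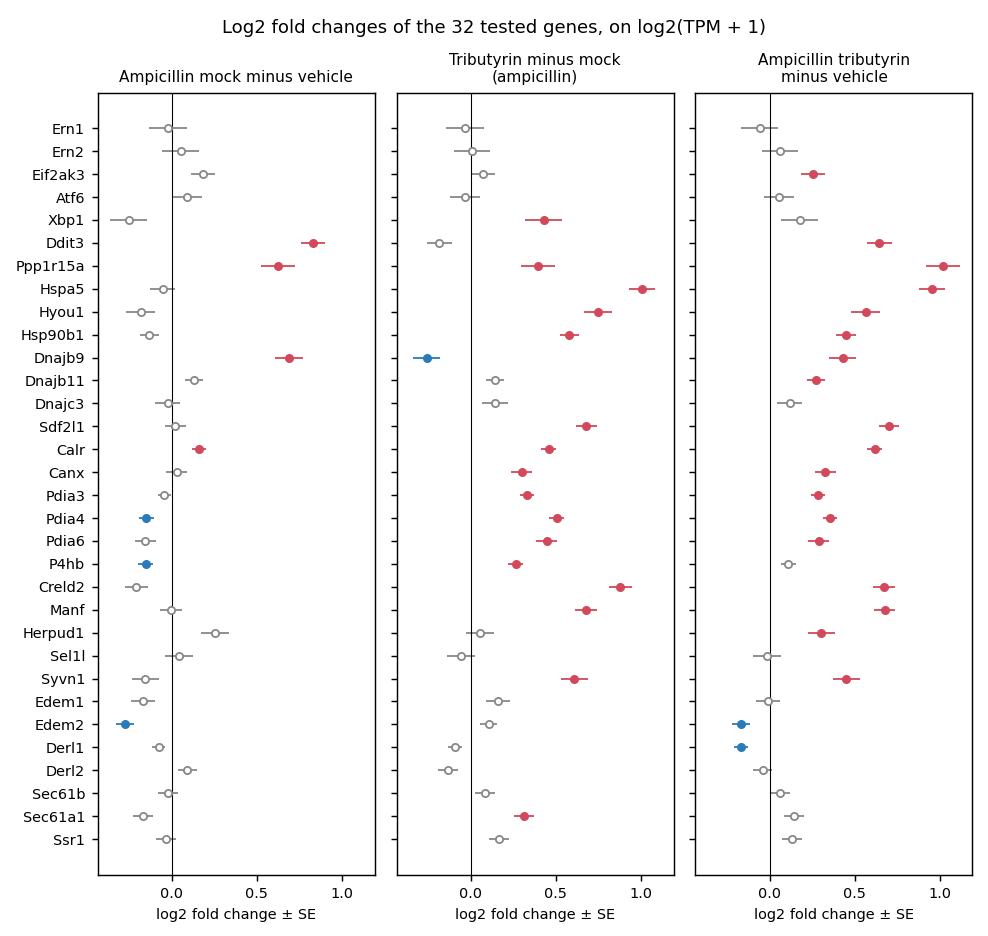
Log2 fold change with SE for the 32 tested genes in each comparison, on the log2(TPM + 1) scale, with filled points for genes called at an adjusted p under 0.05 and the genes ordered by role. For tributyrin against ampicillin the 4 sensors sit near 0, all 4 isomerases and both lectin chaperones lie to the right, Dnajb9 lies furthest to the left, and Hspa5 is highest at 1.01.

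Tributyrin libraries against vehicle libraries give the joint difference of both treatments. Here 18 of the 32 genes were higher (56.3%, against 19.1% of all genes tested) and 2 were lower (6.25%, against 9.21%), 62.5% called in all against 28.3% of all genes. The libraries did not overlap for 20 higher (28.5% of all genes) and 2 lower (13.2%). Over all genes 67.5% of calls were higher, against 47.1% with median-of-ratios scaling, 50.3% with quantile normalization and 60.1% with short RNA left out. The largest difference was that of Ppp1r15a, which was higher with ampicillin and higher again with tributyrin, at 26.0, 25.1 and 19.5 TPM in vehicle and 46.4, 48.9 and 49.9 TPM in tributyrin libraries (1.02 ± 0.0997, adjusted p = 0.000360). Calr was the other gene called higher in all 3 comparisons (0.62 ± 0.043, adjusted p = 9.29e-05). Its call for ampicillin against vehicle was among those lost in some alternatives, as were those of Pdia4 and P4hb. Ddit3 (0.65 ± 0.072, adjusted p = 0.000646) and Dnajb9 (0.43 ± 0.08, adjusted p = 0.00596) stayed above vehicle. For 10 genes, Hspa5, Hyou1, Hsp90b1, Sdf2l1, Canx, Pdia3, Pdia6, Creld2, Manf and Syvn1, ampicillin against vehicle was not called and tributyrin was called higher against both other groups. Hspa5 had a log2 fold change of 0.95 ± 0.075, adjusted p = 0.000145. Pdia4, lower with ampicillin, ended higher than vehicle (0.36 ± 0.042, adjusted p = 0.000851), and P4hb, also lower with ampicillin, was not called against vehicle (0.11 ± 0.044, adjusted p = 0.0923).

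Dnajb11 (0.27 ± 0.051, adjusted p = 0.00587), Herpud1 (0.31 ± 0.081, adjusted p = 0.0245) and Eif2ak3 (0.26 ± 0.073, adjusted p = 0.0314) were called higher in this comparison and in neither of the others. Herpud1 stood at 73.4, 70.6 and 84.6 TPM in vehicle and 96.0, 99.3 and 87.3 TPM in tributyrin libraries, and Eif2ak3 at 8.24, 9.48 and 8.78 and 11.6, 10.7 and 9.92 TPM. Neither overlapped between these groups. The call of Eif2ak3 was lost without ampicillin library 2, tributyrin library 1 or 2, or vehicle library 1 or 3 (adjusted p up to 0.0986), and that of Herpud1 without tributyrin or vehicle library 1 or 2 (up to 0.0851). With only the tributyrin and vehicle groups fitted, Eif2ak3 stood at 0.0737 and Herpud1 at 0.0523. Eif2ak3 also lost its call without the filter (0.0520), with the replicate block (0.0555) and with short RNA left out (0.0510). Dnajb11 was at 0.0614 with median-of-ratios scaling. The ERAD genes Derl1 (-0.17 ± 0.04, adjusted p = 0.0155) and Edem2 (-0.17 ± 0.052, adjusted p = 0.0408) were lower. Derl1 (gene ID 67819, chromosome 15, 57869502 to 57892418) stood at 46.2, 44.7 and 46.5 TPM in vehicle, 43.3, 44.1 and 42.6 TPM in ampicillin and 40.8, 41.3 and 39.8 TPM in tributyrin libraries, and its call was at 0.0554 without vehicle library 3. Edem2 lost its call without any 1 of the 9 libraries, at up to 0.116. Its call was also lost without the variance trend (0.0508) and with only the tributyrin and vehicle groups fitted (0.0892). In no comparison were Ern1, Ern2, Atf6, Dnajc3, Sel1l, Edem1, Derl2, Sec61b or Ssr1 called.

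A wider list of 88 other genes of ER folding, glycan trimming, translocation and degradation had 83 tested. Ampicillin raised 8 (9.64%, against 11.0% of all genes) and lowered 9 (10.8%, against 10.2%). Tributyrin against ampicillin raised 16 (19.3%, against 15.6%) and lowered 3 (3.61%, against 7.54%), and tributyrin against vehicle raised 12 (14.5%, against 19.1%) and lowered 5 (6.02%, against 9.21%). Most of these shares lie near the background. The median log2 fold changes were -0.02, 0.09 and 0.08, beside 0.02, 0.05 and 0.08 for all genes. By role, tributyrin against ampicillin raised 5 (29.4%) and lowered 1 (5.88%) of 17 other redox enzymes and isomerases. It raised 6 of 18 genes of translocation, signal peptide removal and glycosylation (33.3%), 3 of 6 glycan-trimming genes (50.0%), 1 of 8 other J proteins and exchange factors (12.5%) and 1 of 14 other stress signalling genes (7.14%). Among 20 other ERAD genes it raised 0 and lowered 2 (10.0%). Fkbp11, a prolyl isomerase of secretory cells, stood at 5.91 ± 1.01 TPM in vehicle, 2.06 ± 0.222 TPM in ampicillin and 5.34 ± 0.593 TPM in tributyrin libraries (SD, n = 3). It fell with ampicillin (-1.17 ± 0.12, adjusted p = 0.000396) and rose with tributyrin (1.05 ± 0.12, adjusted p = 0.00117). Its relative Fkbp9 fell with ampicillin from a mean of 12.4 to 5.24 TPM (-1.10 ± 0.058, adjusted p = 1.24e-05).

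Ero1l, the oxidase that recharges the disulfide isomerases, moved the opposite way to Fkbp11. It rose with ampicillin from 11.5 to 21.3 TPM (0.83 ± 0.081, adjusted p = 0.000262) and fell with tributyrin to 17.2 TPM (-0.28 ± 0.081, adjusted p = 0.0364). Hspa13, an Hsp70 of the ER, rose with tributyrin from 9.30 to 13.2 TPM (0.47 ± 0.067, adjusted p = 0.00241). Uggt1, which re-tags misfolded glycoproteins for another round with the lectins, rose from 13.8 to 18.4 TPM (0.39 ± 0.065, adjusted p = 0.00458). Erlec1, a lectin of ERAD, rose with ampicillin (0.31 ± 0.054, adjusted p = 0.00424) and fell with tributyrin (-0.29 ± 0.054, adjusted p = 0.00717). Creb3l1, a transcription factor of the ATF6 kind, fell with ampicillin from 58.9 to 34.8 TPM (-0.74 ± 0.12, adjusted p = 0.00295). Its relative Creb3l3 went the other way, from 5.54 to 11.6 TPM with ampicillin (0.96 ± 0.26, adjusted p = 0.0331). It was not called for tributyrin against ampicillin (0.47 ± 0.26, adjusted p = 0.228).

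Markers of secretory cells of the epithelium, and of other cells that the isolation could carry, also moved. The 10 T and intraepithelial lymphocyte markers summed to 24.0 to 27.7 TPM in vehicle, 18.3 to 29.3 TPM in ampicillin and 34.5 to 59.7 TPM in tributyrin libraries. For tributyrin against ampicillin 4 of the 7 tested rose (57.1%, against 15.6% of all genes), Gzma most (1.72 ± 0.25, adjusted p = 0.00261). The 13 goblet markers summed to 10820 to 13890 TPM in vehicle, 9612 to 10820 TPM in ampicillin and 10700 to 12140 TPM in tributyrin libraries. Of 12 tested, ampicillin lowered 4 (33.3%, against 10.2% of all genes) and tributyrin against ampicillin raised 1 (8.33%, against 15.6%). Tributyrin against vehicle lowered 4 (33.3%, against 9.21%) and raised 0. The 12 Paneth and deep crypt secretory markers summed to 2861 to 3427 TPM in vehicle, 1391 to 1638 TPM in ampicillin and 1297 to 1921 TPM in tributyrin libraries. Of 8 tested, ampicillin lowered 5 (62.5%, against 10.2%) and tributyrin against vehicle lowered 4 (50%, against 9.21%). Tributyrin against ampicillin raised 0 and lowered 0 of them. All 8 B and plasma cell markers were under 1 TPM in all 9 libraries, and none was tested, with sums of 0.551 to 0.931 TPM in vehicle, 1.17 to 1.84 TPM in ampicillin and 1.72 to 2.94 TPM in tributyrin libraries. The planned list also held immunoglobulin genes, some of which had no entry in the deposited table. Low sums of the other markers therefore do not show that plasma cells were absent. The B and plasma sums were higher in ampicillin and in tributyrin libraries than in vehicle libraries. The part of all these cells in the results was not tested. Of 8 pancreatic acinar markers, 4 (Cpa1, Cela3b, Amy2a5 and Pnlip) were at 0 in all libraries, while Cela1 stood at 87.4, 83.8 and 84.4 TPM in vehicle, 77.0, 80.3 and 77.0 TPM in ampicillin and 77.2, 82.8 and 88.6 TPM in tributyrin libraries.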

How the data were processed

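The deposited table holds TPM per gene made by the authors for 9 RNA libraries. Groups come from the sample titles. The submitters' processing notes name the build mm10 and the tools Salmon 0.8.2 and DESeq2 1.20.0 without their roles. Annotation and strand setting were not stated, so reads of genes that overlap on opposite strands may be mixed. Per the labels, cells were freed with DTT, EDTA and Dispase. TPM sums were 999833 to 999866 per library; depth is unknown.

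Genes with a mean of at least 1 TPM over the 9 libraries were kept (12155 of 24091). Group means were fitted to log2(TPM + 1) in limma 3.58.1 (R 4.3.3), with moderated variances, a trend on mean expression, 6 residual degrees of freedom and two-sided Benjamini-Hochberg adjustment over all genes kept. The script was tested on simulated data. Gene positions and promoters are from RefSeq GRCm38.p6; 24045 gene IDs matched. All 33 members could be named; of the wider list, up to 8 called genes per comparison by size, and of other lists up to 3 called genes and the most abundant. Members and lists were chosen with earlier results of these data known. Alternatives changed the scaling, filter, pseudocount, trend, weights, samples and replicate block.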

Additional observations from a re-analysis of the deposited data

How the results depend on the processing

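No member changed direction against its call under any of the alternatives, and 4 of 7, 14 of 17 and 15 of 20 member calls were kept in all of them for ampicillin against vehicle, tributyrin against ampicillin and tributyrin against vehicle. Counts of raised members were 4 (3 to 5), 16 (14 to 20) and 18 (16 to 19). Counts of lowered members were small and moved. For ampicillin against vehicle, 3 became 8 with array weights, 5 with quantile normalization, 1 without the trend and 1 to 4 when 1 library was left out. For tributyrin against ampicillin, 1 became 2 with array weights, 4 with median-of-ratios scaling, 2 with quantile normalization, 0 without the filter, 0 without the trend, 0 with the replicate block and 0 to 1 when 1 library was left out. For tributyrin against vehicle, 2 became 1 without the trend, 1 with only those groups fitted and 0 to 1 when 1 library was left out. Over all genes, 2819 calls for tributyrin against ampicillin became 4271 with array weights and 1587 to 3011 when 1 library was left out (1756 without ampicillin library 1, 1681 without ampicillin library 2, 1587 without tributyrin library 2), and 3444 for tributyrin against vehicle became 2093 to 3786 (2093 without tributyrin library 2). The causes were not tested.

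The replicate numbers are shared by the groups, but the labels tie them to no mouse, litter or day, and deviations of same-numbered libraries correlated at -0.0498 to 0.108, with not every library closest to its own number. With the replicate block, 2707, 3009 and 3569 genes were called, against 2587, 2819 and 3444; Dnajb9 for tributyrin against ampicillin stood at an adjusted p of 0.0676 and Eif2ak3 for tributyrin against vehicle at 0.0555. Calls gained with it were Xbp1 (lower) and Dnajb11 (higher) for ampicillin against vehicle, Dnajb11 (higher) for tributyrin against ampicillin and P4hb (higher) for tributyrin against vehicle.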

Other observations

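Neighbouring stress lists were read in the same fit, as counts and without a test of their difference from the ER genes. Of 20 cytosolic and mitochondrial chaperone genes tested, ampicillin raised 1 (5%, against 11.0% of all genes). Tributyrin against ampicillin raised 16 (80%, against 15.6%) and lowered 0, and tributyrin against vehicle raised 17 (85%, against 19.1%). The rise with tributyrin was thus not particular to the ER genes. Hspa8, the constitutive cytosolic Hsp70 and the most abundant of them, had means of 1269.5 TPM in vehicle, 1368 TPM in ampicillin and 2319.8 TPM in tributyrin libraries. The inducible Hspa1b (1.85 ± 0.17, adjusted p = 0.000476) shares reads with its near-identical copy Hspa1a, so the division between them is uncertain, and Hsph1, their exchange factor, rose as well (1.24 ± 0.099, adjusted p = 0.000400). Of 22 genes of the ATF4 amino acid response tested, ampicillin raised 7 (31.8%, against 11.0% of all genes) and lowered 1 (4.55%, against 10.2%). Tributyrin against ampicillin raised 4 (18.2%, against 15.6%) and lowered 6 (27.3%, against 7.54%). Tributyrin against vehicle raised 10 (45.5%, against 19.1%) and lowered 1 (4.55%, against 9.21%). Asns, which makes asparagine, rose with ampicillin (0.75 ± 0.068, adjusted p = 0.000186), and Phgdh, the first enzyme of serine synthesis, rose with tributyrin (0.97 ± 0.07, adjusted p = 0.000317).

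Within the tributyrin group, library 3 was the lowest of the group in 25 of the 33 members, whereas it was the lowest in 57.7% of all genes tested. Without it, 16 members were raised and 0 lowered against ampicillin.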
